A study of Mus musculus with 8 samples.

Results

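C/EBPα binding was described at the loci of 3 urea cycle enzymes, Cps1, Ass1 and Arg1, in mouse liver. The members are all C/EBPα peaks of 8 deposited lists whose midpoint lies in 3 fixed windows of the mouse build mm9: chr1:67100000-67300000 around Cps1, chr2:31290000-31410000 around Ass1 and chr10:24560000-24720000 around Arg1. The windows were set by position, not by any measured value. Together they held 296 of the 446523 peaks of the 8 lists. Overlapping peaks of different lists (1 bp or more) were merged into sites, giving 41 sites in the Cps1 window, 13 in the Ass1 window and 23 in the Arg1 window, 77 of 113353 sites in all.

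The urea cycle turns ammonia into urea in hepatocytes and is the liver's main route of nitrogen disposal. Cps1 encodes carbamoyl phosphate synthetase, the mitochondrial enzyme that brings ammonia into the cycle and sets its pace. Ass1 encodes argininosuccinate synthase, which joins citrulline to aspartate in the cytosol, and Arg1 encodes liver arginase, which cleaves arginine into urea and ornithine. C/EBPα is a bZIP transcription factor of differentiated hepatocytes, and livers of mice without it are known for low expression of urea cycle genes.

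The libraries were made by chromatin immunoprecipitation and sequencing (ChIP-seq) of whole liver with 1 C/EBPα antibody, 2 libraries per group, from mice of strain C57B/6. Mice were 8 to 10 weeks old, ate chow and were fasted for 4 hours. In the first experiment, Trib1 flox/flox mice were injected with an adeno-associated virus (AAV) for Cre recombinase (Trib1_LSKO) or with an empty virus (Trib1_WT), at 1.5e11 gc. The second experiment used wild-type mice without floxed alleles, injected with a virus for C/EBPα (AAV_Cebpa) or with an empty virus (AAV_Null), at 1e12 gc. Trib1 encodes the pseudokinase Tribbles-1, which is known to promote the degradation of C/EBPα. The promoter of either vector is not given in the sources used here, and the labels do not say whether the libraries of a group came from separate animals. In whole liver, binding in fewer cells and less binding per cell cannot be told apart.

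The lists held 46348 to 80394 peaks. The longest were those of AAV_Cebpa, with 59564 and 80394, against 46348 and 49052 in AAV_Null. Relative to the shallowest library, AAV_Null replicate 1, depth was 1.85 and 2.27 in AAV_Cebpa and 1.17 in AAV_Null replicate 2. It was 1.18 and 1.28 in Trib1_LSKO, against 1.14 and 1.93 in Trib1_WT. The weakest peak of a list rested on 7 to 12 sequence tags. Absence from a list therefore means that no peak was listed at the site at that depth and threshold, which is not the same as unbound. A list can also hold a peak close by that was not merged with the site. The strength of a peak is given as its percentile of signal within its own list, where 100 is the strongest. Percentiles of lists of different length do not show a change by themselves. Every list was therefore also cut to its strongest 46348 peaks (lists of equal length). Values from such lists stand beside the main counts compared between groups and beside some single-site differences.

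Gene spans are the approximate mm9 spans that define the windows. They measure 108000 bp for Cps1, 50500 bp for Ass1 and 13000 bp for Arg1, and RefSeq's GRCm38 table gives lengths of 108842, 50401 and 12264 bp. Distances are counted from the approximate 5′ end along transcription. They carry an uncertainty that follows from the rounding of the spans. In the GRCm38 table the protein-coding neighbours are Lancl1 and Erbb4 for Cps1, Hmcn2 and Fubp3 for Ass1, and Med23 (on the 3′ side) and Akap7 for Arg1.

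A C/EBPα site lay at the start of Ass1, as at that of Cps1, but of the 3 genes only Ass1 was matched in RefSeq's promoter table. Its promoter sequence is therefore shown (build GRCm38.p6, chr2:31470020-31470269, plus strand, the 250 bases before the transcription start). Capitals mark TTGC, 1 arm of the palindrome that C/EBP proteins recognise, on either strand.
Ass1 promoter: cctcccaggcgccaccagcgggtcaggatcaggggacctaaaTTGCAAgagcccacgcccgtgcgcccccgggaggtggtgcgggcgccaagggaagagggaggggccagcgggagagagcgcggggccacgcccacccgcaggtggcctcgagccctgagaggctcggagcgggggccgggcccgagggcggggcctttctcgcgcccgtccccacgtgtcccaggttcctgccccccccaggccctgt
The arm occurred at 2 overlapping positions, 208 and 206 bases before the start, 1 on each strand, which together read TTGCAA. Of 32851 promoters of the same length, 79.3% held the arm on at least 1 strand, so a match is common. The palindrome TTGCGCAA and the looser form TTGCNNAA, searched on both strands, were not in this window. They were in 0.164% and 9.56% of all promoters. The GC box GGGCGG, which Sp1 recognises, occurred 1 time, 63 bases before the start, and 32.7% of all promoters held it. The sequence is 75.6% G and C. The bases under the mm9 peak itself were not read.

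The 3 windows were dense in sites when those of any list were counted. They held 20.5 (Cps1), 10.8 (Ass1) and 14.4 (Arg1) sites per 100 kb, against 4.41 per 100 kb over all chromosomes. The latter was taken from the first to the last site of each chromosome. For sites listed in all 8 libraries the values were 4.5, 0.833 and 3.125, against 0.946, so Ass1 lay below the chromosomes. Sites listed in all 8 libraries numbered 9, 1 and 5, together 15 of 77 (19.5%). The share over all sites was 21.5%, so the windows did not hold relatively more shared sites. Sites listed in only 1 library numbered 27 (35.1%), against 27.1% over all sites. At Ass1, 6 of the 13 sites were listed in 5 to 7 libraries, against 17.5% of all sites.

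**Figure D1:**
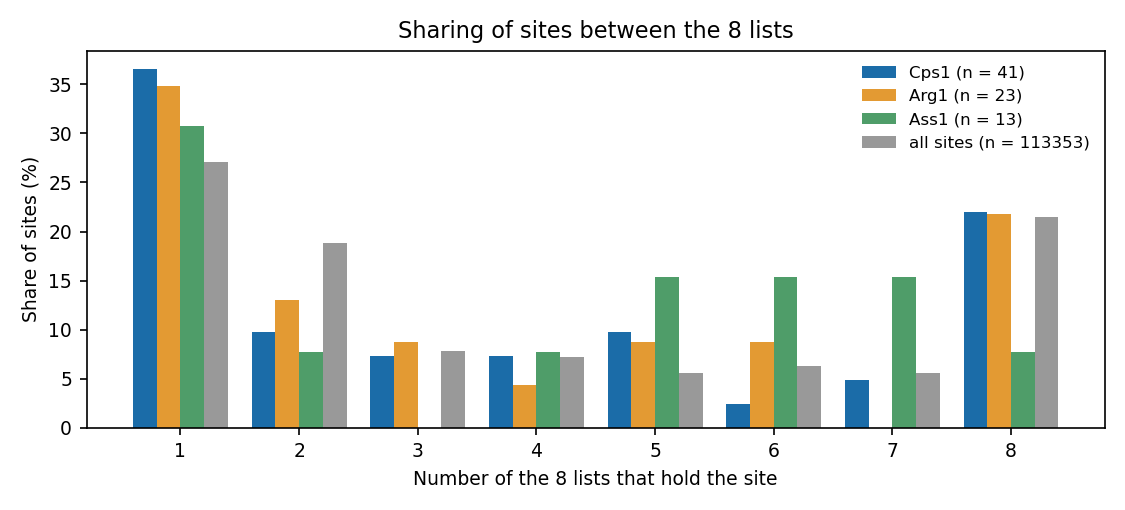
Share of sites (vertical axis, percent) by the number of the 8 lists that hold them (horizontal axis), for the Cps1, Arg1 and Ass1 windows and for all 113353 sites. The bars at 8 lists stand at 22.0%, 21.7% and 7.69% in the 3 windows and at 21.5% for all sites.

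Cps1 carried the strongest sites of the 3 loci. A site at the approximate 5′ end (chr1:67169382-67169594, centred 0.5 kb upstream) had percentiles of 99.4 and 98.8 in Trib1_LSKO, 98.9 and 99.2 in Trib1_WT, 99.7 and 99.6 in AAV_Cebpa, and 99.0 and 98.5 in AAV_Null. Its midpoint moved by no more than 13 bp across the 8 lists. It ranked 175 of 59564 and 306 of 80394 peaks in AAV_Cebpa, against 478 of 46348 and 740 of 49052 in AAV_Null. Both percentiles of AAV_Cebpa lay above both of AAV_Null. The difference of group means was 0.94 points as listed and 0.80 with lists of equal length. Of all sites listed in these 4 libraries, 39.1% were higher without overlap in AAV_Cebpa as listed and 25.6% with lists of equal length. The median difference over such sites was 1.89 points as listed and -4.78 with lists of equal length.

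A series of strong sites lay upstream of the Cps1 start. The site 6.7 kb upstream (chr1:67163132-67163429) had percentiles of 99.1 and 98.6 in Trib1_LSKO, 99.4 and 99.7 in Trib1_WT, 99.2 and 99.4 in AAV_Cebpa, and 99.6 and 99.7 in AAV_Null. The site 19.3 kb upstream (chr1:67150597-67150824) had 99.6 and 99.8 in Trib1_LSKO, 99.6 and 99.6 in Trib1_WT, 98.4 and 98.7 in AAV_Cebpa, and 98.9 and 99.5 in AAV_Null. Both stayed among the strongest 2% of every list. The site at 19.3 kb rested on 195 and 231 tags in Trib1_LSKO, 220 and 297 in Trib1_WT, 200 and 279 in AAV_Cebpa, and 199 and 252 in AAV_Null. The sites 9.9 and 30.8 kb upstream, at chr1:67159956-67160181 and chr1:67139035-67139315, were also listed in all 8 libraries, with percentiles of 95.0 to 98.9 and of 86.2 to 95.6. A further site 45.5 kb upstream (chr1:67124427-67124653) was listed in 7 libraries, at 84.9 to 96.4, and AAV_Null replicate 1 listed a peak at 87.4 in its place, 164 bp away. The most distant site shared by all lists, 55.8 kb upstream (chr1:67113948-67114376), was weaker and more variable, with percentiles from 23.4 to 69.3.

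**Figure D2:**
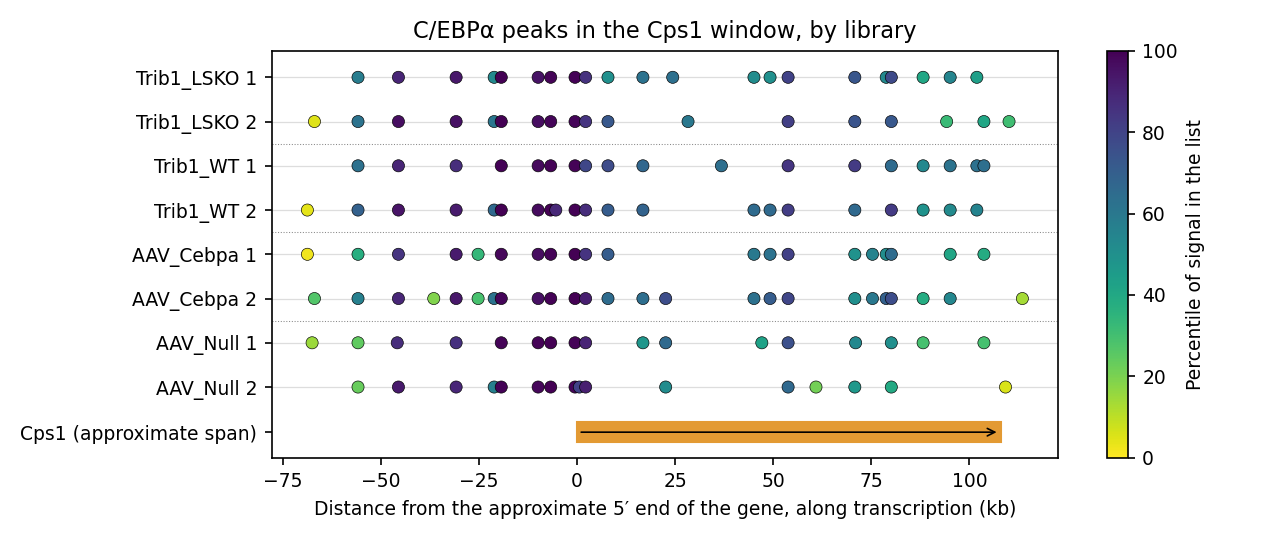
C/EBPα peaks of the Cps1 window, 1 row per library, by distance from the approximate 5′ end along transcription (kb, negative is upstream), coloured by percentile of signal in the list; the bar is the approximate gene span. Dark points upstream and at the start line up in the 8 rows, with 3 sites at 98.4 or above in every list, while points inside the gene differ between rows.

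Inside the Cps1 span there were 23 sites, of which 3 were listed in all 8 libraries. They lay 2.2 kb (percentiles 78.7 to 91.6), 53.8 kb (66.3 to 84.6) and 80.1 kb (39.8 to 82.8) past the start. The site at 80.1 kb (chr1:67249998-67250223) had percentiles of 77.4 and 73.0 in Trib1_LSKO, 65.5 and 82.8 in Trib1_WT, 65.2 and 76.7 in AAV_Cebpa, and 50.4 and 39.8 in AAV_Null. Both AAV_Null values lay below all the others. A further 8 sites of the span were listed in a single library, with percentiles of 21.2 to 80.3 and a median of 56.6. Over all 30747 single-library sites the median was 13.5 (interquartile range 4.86 to 28.1). The single-library sites of this span came from Trib1_LSKO, Trib1_WT and AAV_Null lists. None came from AAV_Cebpa, whose lists held 53.1% of all single-library sites. Outside the span, AAV_Cebpa replicate 2 alone listed sites 36.5 kb upstream (19.1) and 5.5 kb past the gene (13.6), and it also listed single-library sites at Arg1. Among the 8, the peak of AAV_Null replicate 1 at 71.0 kb lay 52 bp from a site that the other 7 libraries listed.

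At Ass1, the site with the highest mean percentile lay 5.7 kb upstream (chr2:31319907-31320140) and was the only site of the window listed in all 8 libraries. Its percentiles were 92.8 and 95.4 in Trib1_LSKO, 96.6 and 96.1 in Trib1_WT, 56.2 and 72.6 in AAV_Cebpa, and 89.0 and 93.1 in AAV_Null. The AAV_Cebpa lists were the lowest of the 8, and in AAV_Cebpa replicate 2 the site 8.6 kb upstream, at 77.0, ranked above it. The site at 5.7 kb rested on 51 and 108 tags in AAV_Cebpa and on 99 and 148 in the shallower AAV_Null libraries. The neighbouring site 6.6 kb upstream (chr2:31318966-31319201) had 77.9 and 88.0 in Trib1_LSKO, 85.2 and 92.5 in Trib1_WT, 36.7 in AAV_Cebpa replicate 2 with no peak in replicate 1, and 71.1 and 68.2 in AAV_Null.

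The site at the Ass1 start (chr2:31325463-31325710, centred 0.1 kb upstream), whose promoter sequence is printed above, was listed in 6 libraries. Its percentiles were 38.5 and 65.1 in Trib1_LSKO, 72.0 and 71.0 in Trib1_WT, 22.6 in AAV_Cebpa replicate 2 and 46.9 in AAV_Null replicate 2. It was not listed in the first replicate of AAV_Cebpa or of AAV_Null. The start of Ass1 thus held a weaker C/EBPα site than the start of Cps1 in each of these 6 lists. Just past the 3′ end, a site 51.8 kb from the start (chr2:31377411-31377669) had 38.5 and 42.2 in Trib1_LSKO, 71.4 and 71.9 in Trib1_WT, 20.3 in AAV_Cebpa replicate 2, and 40.4 and 25.4 in AAV_Null. A site near the 3′ end of the gene, 47.4 kb from the start (chr2:31372963-31373184), had 53.0 and 61.7 in Trib1_LSKO and 85.9 and 77.7 in Trib1_WT, and was listed in no library of the second experiment. It was the only member listed in all 4 lists of the first experiment and none of the second, where 0.670% of all sites did the same. The experiments differ in genotype and vector dose, and their libraries also in depth and list length. Which of these or other differences between the experiments goes with the site cannot be told apart.

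**Figure D3:**
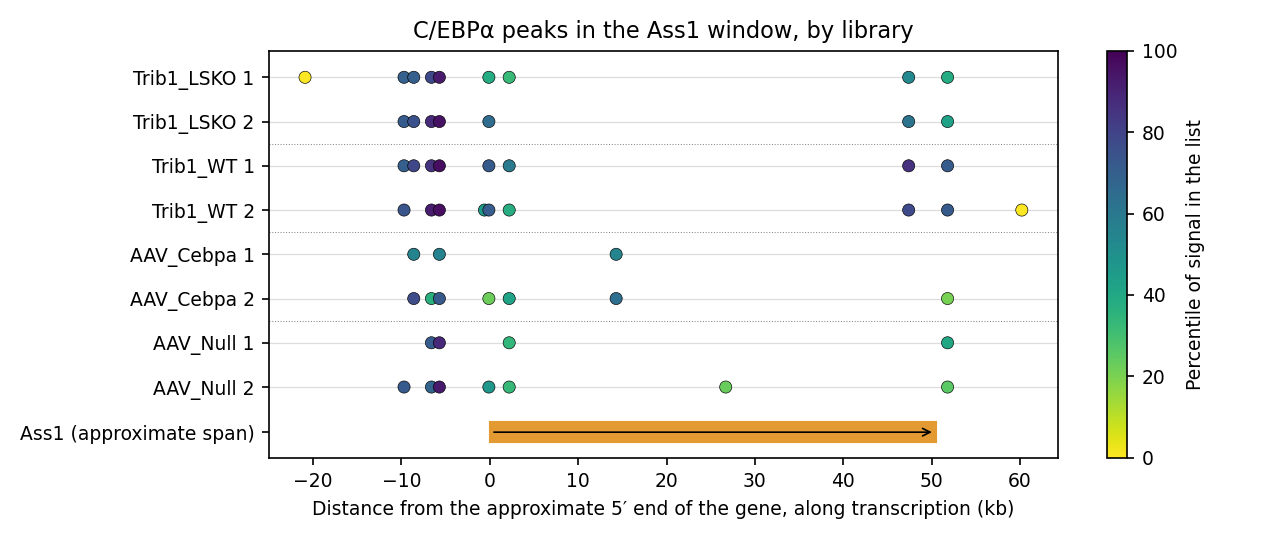
C/EBPα peaks of the Ass1 window, 1 row per library, by distance from the approximate 5′ end along transcription (kb, negative is upstream), coloured by percentile of signal in the list; the bar is the approximate gene span. AAV_Cebpa replicate 1 holds 3 peaks and replicate 2 holds 7, against 4 and 7 in AAV_Null, and the site 5.7 kb upstream is paler in both AAV_Cebpa rows.

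At Arg1, the site with the highest mean percentile lay 20.5 kb upstream (chr10:24668335-24668572), far from the start. Its percentiles were 98.0 and 97.9 in Trib1_LSKO, 97.9 and 99.0 in Trib1_WT, 96.9 and 99.0 in AAV_Cebpa, and 95.9 and 98.0 in AAV_Null. The groups overlapped in both experiments. It stood between sites 19.9 kb (chr10:24667744-24667968) and 23.6 kb upstream (chr10:24671510-24671753), so that 3 shared sites lay within 4 kb of each other. The site at 19.9 kb had 85.4 and 92.7 in Trib1_LSKO, 94.5 and 95.3 in Trib1_WT, 87.7 and 88.7 in AAV_Cebpa, and 96.0 and 95.9 in AAV_Null. The site at 23.6 kb had 79.9 and 90.4 in Trib1_LSKO, 92.6 and 94.8 in Trib1_WT, 81.0 and 88.0 in AAV_Cebpa, and 92.1 and 92.9 in AAV_Null. Both flanking sites were thus lower in each treated group than in its own control group, without overlap, and the groups overlapped at the site between them. How many sites were lower in both comparisons was not counted. By single comparison, 36.5% of all sites listed in its 4 libraries were lower without overlap in Trib1_LSKO and 27.8% in AAV_Cebpa. Mean differences as low as those of the site at 19.9 kb, or lower, were found at 35.5% and 21.8% of such sites, and those of the site at 23.6 kb at 26.5% and 21.3%.

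Inside the Arg1 span, 1 site was shared by all 8 lists. It lay 5 kb past the start (chr10:24642886-24643101), with percentiles of 92.6 and 90.2 in Trib1_LSKO, 96.3 and 94.8 in Trib1_WT, 88.8 and 92.8 in AAV_Cebpa, and 94.5 and 92.2 in AAV_Null. The start itself held only a peak of Trib1_WT replicate 2, at a percentile of 45.5, centred 0.5 kb inside the gene. On the 3′ side, towards Med23, a subunit gene of the Mediator complex, a site 3.8 kb past the gene (chr10:24631116-24631344) was listed in all 8 libraries with percentiles of 29.5 to 62.1. The remaining sites of the window were listed in 6 libraries or fewer.

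**Figure D4:**
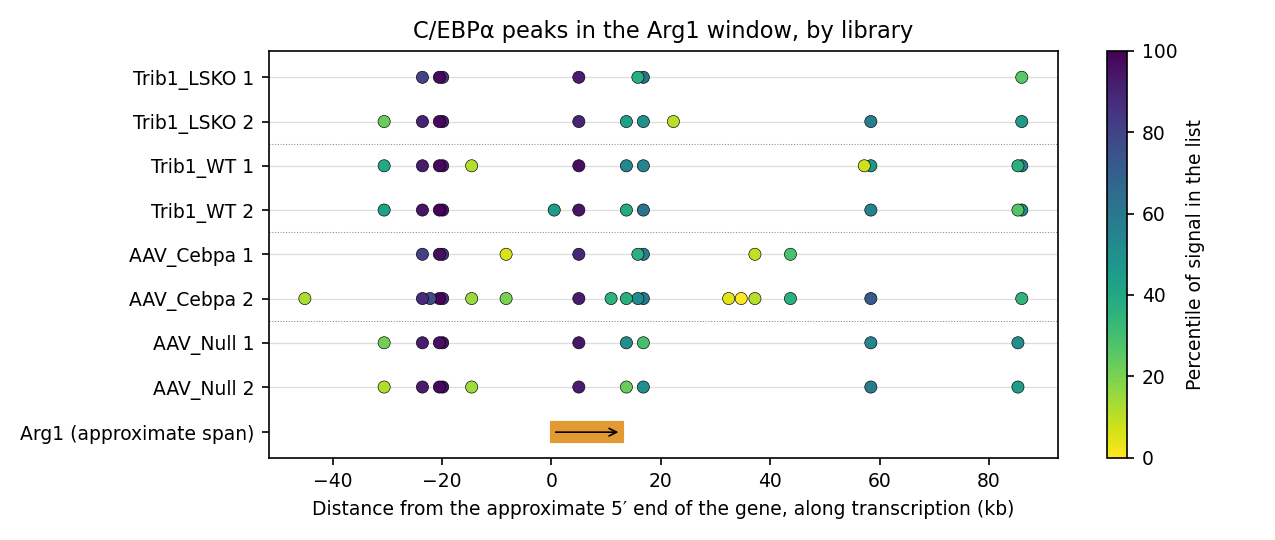
C/EBPα peaks of the Arg1 window, 1 row per library, by distance from the approximate 5′ end along transcription (kb, negative is upstream), coloured by percentile of signal in the list; the bar is the approximate gene span. The group of 3 sites 19.9 to 23.6 kb upstream and the site 5 kb inside the gene are present in all 8 rows, and AAV_Cebpa replicate 2 holds 18 peaks against 7 to 12 in the other rows.

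The first comparison asked how giving Cre to floxed mice altered C/EBPα occupancy at these genes. No site of the 3 windows was gained in Trib1_LSKO, meaning listed in both of its libraries and in neither Trib1_WT library, and 1 of 77 was lost, the reverse. Over all sites, 3.15% were gained and 3.23% lost, so the counts at these loci were small on that scale too. The lost site lay downstream of Arg1 (chr10:24562543-24562820, 72.3 kb past the gene), at 36.6 and 27.2 in Trib1_WT, and it was listed in both AAV_Null libraries and in neither AAV_Cebpa library. Leaving out a library loosens the definition, and the share over all sites was not computed for such counts. Gained sites then numbered 5 and 4 without Trib1_LSKO replicate 1 and 2 and 1 without either Trib1_WT replicate, and lost sites 6, 4, 6 and 4 in the same order. The windows held 37 and 35 peaks in Trib1_LSKO and 38 and 41 in Trib1_WT, 36 ± 1.41 against 39.5 ± 2.12 (SD over 2 libraries). The exact permutation test, two-sided, gave p = 0.333, the lowest value open to 4 libraries.

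Rank within the lists was more often lower in Trib1_LSKO. Of 24 sites listed in all 4 libraries, 12 had both Trib1_LSKO percentiles below both Trib1_WT ones (50%, against 36.5% of all such sites), and 1 had them above (4.17%, against 20.2%). The 12 were 4 at Cps1, 4 at Ass1 and 4 at Arg1, of 12, 6 and 6 sites. In lists of equal length 11 were lower (45.8%, against 32.5% of all such sites) and 2 higher (8.33%, against 22.2%). No site was gained and 1 was lost in such lists, where 4.27% and 3.41% of all sites were. The most negative difference among members, -31.3 points, was at the Ass1 site past the 3′ end, with 40.3 ± 2.65 in Trib1_LSKO and 71.6 ± 0.37 in Trib1_WT (SD over 2 libraries). Of all 34866 sites listed in all 4 libraries, 0.829% had a difference as low or lower. The site near the 3′ end of Ass1 averaged 57.4 ± 6.18 in Trib1_LSKO and 81.8 ± 5.75 in Trib1_WT. That at the start of Ass1 averaged 51.8 ± 18.8 in Trib1_LSKO and 71.5 ± 0.66 in Trib1_WT. Differences as low or lower were found at 2.72% and 5.98% of all such sites. At the Ass1 site 5.7 kb upstream the difference was -2.24, close to the median of -2.45 over all such sites. With lists of equal length the Ass1 differences were -33.3 past the 3′ end, -26.0 near it, -20.0 at the start and -2.26 at 5.7 kb upstream. The 1 site that was higher lay 30.8 kb upstream of Cps1, at 93.5 and 95.6 in Trib1_LSKO and 87.0 and 92.8 in Trib1_WT. Trib1_WT replicate 2 was the deepest of these 4 libraries, and the part of depth in these ranks was not tested.

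**Figure D5:**
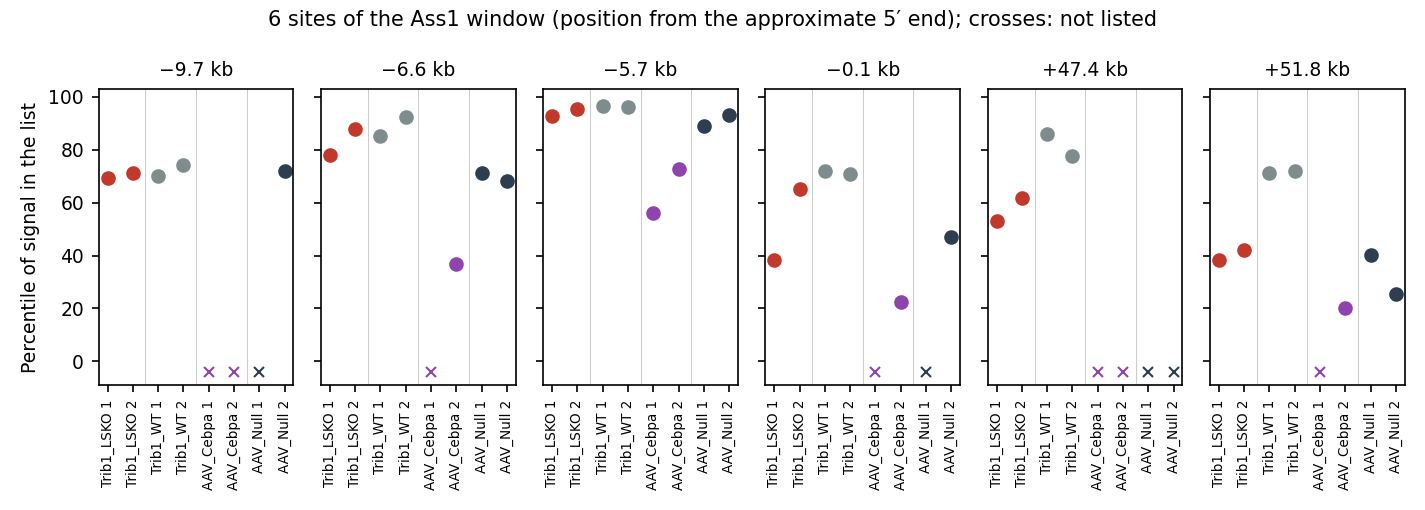
Percentile of signal (vertical axis) in each of the 8 libraries (horizontal axis) for the 6 sites of the Ass1 window listed in all 4 Trib1_LSKO and Trib1_WT libraries; each panel is a site, headed by its distance from the approximate 5′ end, and a cross marks a library that does not list it. At +51.8 kb the Trib1_LSKO points lie at 38.5 and 42.2 and the Trib1_WT points at 71.4 and 71.9; at −5.7 kb the AAV_Cebpa points lie at 56.2 and 72.6 and the AAV_Null points at 89.0 and 93.1.

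The second comparison asked how added C/EBPα altered its occupancy at these genes. In AAV_Cebpa, 13 of 77 sites were gained (16.9%) and 2 were lost (2.6%), against 19.5% and 5.33% of all sites. The share gained was therefore near that of sites in general. The windows held 32 and 50 peaks in AAV_Cebpa and 30 and 33 in AAV_Null, 41 ± 12.7 against 31.5 ± 2.12 (SD over 2 libraries; p = 0.667 in the same exact permutation test). After cutting to equal length the difference of 9.5 peaks turned to -1.5, and it was 0.5 without AAV_Cebpa replicate 2 and 18.5 without AAV_Cebpa replicate 1. Gained sites numbered 22 without AAV_Cebpa replicate 1. Lost sites numbered 8 without AAV_Cebpa replicate 2 and 7 and 6 without AAV_Null replicate 1 and 2. For these looser counts, too, the share over all sites was not computed.

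Cps1 held 7 of the gained sites, or 17.1% of its 41 sites, against 19.5% of all sites. Of these 7, 6 lay inside the gene, where 23 of the 41 sites lay. The site 7.9 kb past the start (chr1:67177763-67177998) had percentiles of 70.8 and 65.1 in AAV_Cebpa and no peak in AAV_Null. It was also listed in all 4 libraries of the first experiment, at 50.2 and 73.0 in Trib1_LSKO and 77.3 and 71.4 in Trib1_WT. The sites 45.1 kb (chr1:67215016-67215228) and 49.2 kb (chr1:67219038-67219282) past the start had 59.4 and 63.3, and 62.4 and 70.8, in AAV_Cebpa, and each was listed in 1 Trib1_LSKO and 1 Trib1_WT library. The site at 75.3 kb (chr1:67245191-67245412), with 55.3 and 60.0, was listed in AAV_Cebpa only. The others inside the gene lay at 78.8 kb (chr1:67248743-67248952; 51.4 and 69.3), also listed in Trib1_LSKO replicate 1, and at 95.1 kb (chr1:67264964-67265206; 41.3 and 53.8), also listed in 3 libraries of the first experiment. Gained sites inside Cps1 thus had AAV_Cebpa percentiles of 41.3 to 70.8 as listed, and of 19.9 to 62.4 with lists of equal length. In equal lists the site at 75.3 kb had 42.5 and 30.6, and that at 95.1 kb had 24.6 and 19.9. Of the 6, 5 were listed in at least 1 library of the first experiment, as were 42.8% of all gained sites. The gained site 25.2 kb upstream (chr1:67144660-67144860) was weaker, at 33.3 and 29.1. No Cps1 site was lost.

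Arg1 held 4 gained sites, or 17.4% of its 23 sites, against 19.5% of all sites. Of the 4, 3 lay past the gene, where 12 of the 23 lay. The 4 gained sites had AAV_Cebpa percentiles of 5.9 to 51.9. They were chr10:24604162-24604388, 30.7 kb past the 3′ end (28.9 and 36.7 in AAV_Cebpa), chr10:24610653-24610856, 24.2 kb past it (9.1 and 11.0), chr10:24632046-24632282, 2.8 kb past it (36.0 and 51.9), and chr10:24656209-24656462, 8.3 kb upstream of the start (5.9 and 20.3). Of these 4, only the site 2.8 kb past the gene was listed in a library of the first experiment, Trib1_LSKO replicate 1. In lists of equal length, 1 of 15 Arg1 sites was gained (6.67%, against 14.9% of all sites). In the same lists 3 were lost (20%, against 11.4% of all sites). As listed, both lost sites of this comparison were at Arg1. The site lost in Trib1_LSKO as well had 50.4 and 44.2 in AAV_Null. The other (chr10:24678493-24678759, 30.6 kb upstream) had 21.6 and 11.7 in AAV_Null and was listed in Trib1_LSKO replicate 2 and in both Trib1_WT libraries.

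At Ass1, 2 of 13 sites were gained in AAV_Cebpa (15.4%, against 19.5% of all sites). The site 8.6 kb upstream (chr2:31316962-31317184) had 55.3 and 77.0 in AAV_Cebpa and was listed in 3 libraries of the first experiment, at 70.1 and 75.2 in Trib1_LSKO and 78.7 in Trib1_WT replicate 1. The site 14.3 kb inside the gene (chr2:31339848-31340059) had 54.3 and 64.2 and was listed in AAV_Cebpa only. Over the 3 loci, 6 of the 13 gained sites were listed in no library of the first experiment and 7 in at least 1. Of all 22124 sites gained in AAV_Cebpa, 57.2% were listed in none and 42.8% in at least 1. With lists of equal length the Ass1 window held 3 and 3 peaks in AAV_Cebpa and 4 and 7 in AAV_Null, and 2 of its sites were gained and 3 lost. Lost sites over the 3 windows then numbered 6, or 9.52% of 63, against 11.4% of all sites, and gained sites 9, or 14.3%, against 14.9%.

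Sites shared by AAV_Cebpa and AAV_Null differed in both directions. Of 15 sites listed in all 4 libraries, 6 had both AAV_Cebpa percentiles above both AAV_Null ones (40%, against 39.1% of all such sites) and 6 had them below (40%, against 27.8%). In lists of equal length 3 were higher (20%, against 25.6%) and 8 lower (53.3%, against 48.9%). The Ass1 site 5.7 kb upstream had the most negative difference among members, 64.4 ± 11.6 in AAV_Cebpa and 91.1 ± 2.94 in AAV_Null (SD over 2 libraries). The difference was -26.7 points, which 4.21% of the 27702 sites matched or exceeded in that direction. With lists of equal length it was -42.8 points, matched or exceeded by 4.41% of 23718 sites. The flanking Arg1 sites at 19.9 and 23.6 kb upstream differed by -7.75 and -8.00 points as listed. With lists of equal length they differed by -13.5 and -14.9, where the median over all such sites was -4.78. In those lists, 31.9% and 29.6% of all such sites had a difference as low or lower. The most positive difference was at the Cps1 site 80.1 kb past the start, with 71.0 ± 8.14 in AAV_Cebpa and 45.1 ± 7.49 in AAV_Null. It was 25.8 points as listed and 14.0 points with lists of equal length, and 14.1% and 17.0% of all such sites had a difference as high or higher.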

How the data were processed

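C/EBPα ChIP-seq peaks of mouse liver were taken from 8 deposited lists, 1 per library, with 2 libraries in each of 4 groups. Each deposited line holds a position and 1 signal value, and every peak was 200 bp wide. The authors used Bowtie, HOMER and build mm9, per the submitters' processing notes. The sources used here give no versions and do not say whether an input library was used, how peaks were thresholded or how duplicates were handled. In each library nearly all signal values were whole multiples of 1 step (tolerance 0.051, from rounding); the lowest share was 99.87%. The inverse of the step gave relative depth, and signal divided by it gave tags. Nuclei were crosslinked in 1% formaldehyde, per the labels' protocols.

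Windows of 200 bp around peak midpoints were merged over all lists into sites where they shared 1 bp or more, and the code was tested on simulated lists. A site belongs to a locus by its midpoint. Percentiles are mean ranks within a list. Gained and lost calls, percentiles and their shares were computed over all 113353 sites, and only members are reported. With 2 libraries per group no site was tested, and peak numbers had an exact permutation test.

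Sites printed with all values were, in each window, the 3 with the highest mean percentile among those in the most libraries, the site nearest the 5′ end, and all gained or lost sites. Further sites were chosen after their values were seen. Members, windows and lists were chosen with earlier results of these data known. Alternatives were lists of equal length (46348 peaks), the strongest 50%, joining windows of 100 and 500 bp, a replicate block and leaving out each library. No mm9 genome was used here, so peak sequences are not shown. Of the 3 genes, 1 was matched in the RefSeq promoter table. The other urea cycle genes fixed as a list (Asl, Otc, Nags, Slc25a15, Slc25a13, Arg2, Glul) need mm9 positions and were not analysed here. Analyses used Python 3.11.15, pandas 2.3.3, NumPy 2.4.6, SciPy 1.17.1 and matplotlib 3.10.9.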

Additional observations from a re-analysis of the deposited data

How the results depend on the processing

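With lists of equal length, the difference in peaks between AAV_Cebpa and AAV_Null reversed to -1.5, sites lost in AAV_Cebpa numbered 6, sites with higher percentiles in AAV_Cebpa numbered 3, and those with higher percentiles in Trib1_LSKO numbered 2. With the strongest 50% of each list, 3 sites were lost in Trib1_LSKO, 7 were gained and 1 was lost in AAV_Cebpa, and 3 had higher percentiles in AAV_Cebpa. The cause was not tested. With the strongest 50% or with a library left out, the share over all sites was not computed beside the counts. Joining windows of 100 and 500 bp, run for sites gained, lost and listed in all 8 libraries, gave counts within 1.5 times. Leaving out each library gave 1 to 5 gained and 4 to 6 lost sites in Trib1_LSKO, 13 to 22 gained and 2 to 8 lost sites in AAV_Cebpa, and 15 to 17 sites listed in all libraries left. Peak differences ran from -5.0 to -2.0 for Trib1_LSKO and from 0.5 to 18.5 for AAV_Cebpa. With the replicate number as a replicate block the differences were -3.5 and 9.5 by construction (exact two-sided sign-flip p = 0.5 for both, the smallest possible with 2 pairs), and with 2 libraries per group the pairing itself could not be checked. Depth and list length limit every absence reported.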

Other observations

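Neighbouring sites less than 500 bp apart occurred in 6 places: 3 at Cps1, with gaps of 311, 164 and 52 bp, 2 at Arg1, with gaps of 383 and 366 bp, and 1 at Ass1, with a gap of 281 bp. At the gaps of 164 and 52 bp, AAV_Null replicate 1 listed a site of its own, and the other 7 libraries listed its neighbour. AAV_Null replicate 1 had its peaks there at percentiles of 87.4 and 53.2, 45.8 kb upstream and 71 kb past the start of Cps1. A site listed in Trib1_WT replicate 2 alone, 5.4 kb upstream of Cps1 (chr1:67164479-67164678), had a percentile of 89.0 and 154 tags. A site listed in AAV_Cebpa replicate 2 alone, 22.2 kb upstream of Arg1 (chr10:24670072-24670271), had a percentile of 77.3 and 123 tags.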
